A study of Mus musculus with 13 samples.

Results

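Fibrillar collagens and the collagens that coat their fibrils were followed in interscapular brown adipose tissue (iBAT) of mice on a high-fat diet. The set held 9 genes, namely Col1a1, Col1a2, Col3a1, Col5a1, Col5a2, Col5a3, Col12a1, Col14a1 and Col16a1, out of 13360 genes with enough counts to be tested. The genes were taken by symbol, and they were chosen by family and with the CPM of the 13 libraries and the comparison of the groups already known, in which Col14a1 had been seen at a higher level. The difference between the groups is therefore given for each gene as a description, with its error and with no test. All 9 genes passed the filter on low counts, which asked for over 1 CPM, or counts per M counts of the library, in 5 or more libraries.

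Each library is bulk RNA from the iBAT of 1 mouse. Mice in both groups were homozygous for a loxP-flanked Axl gene, ate a high-fat diet at room temperature and were dosed with tamoxifen every 3 weeks. The 8 iFAXLKO mice also carried Cre, and the 5 mice called WT were Cre negative, so they are floxed controls and not unmodified mice. Per the study, the Cre line is Adipoq-CreERT2, a transgene driven by regulatory sequence of the adipocyte gene Adipoq, the controls were littermates and the sequenced mice were female, dosed first as young mice. Their age at sampling is not given in the sources used here. Since the tissue was sequenced whole, fewer cells of a type and less RNA per cell cannot be told apart.

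Total counts ran from 22.44 to 32.6 M per library, so that a count of 0 allows up to 0.092 to 0.134 CPM, where the floor is 3 counts and covers counting error only. Axl, the receptor tyrosine kinase targeted by the deletion, was at 33.1 ± 6.16 CPM (SD, n = 8) in the libraries labelled iFAXLKO and 27.8 ± 3.82 CPM (SD, n = 5) in those labelled WT. Its log2 fold change was 0.25 (SE 0.13), with an adjusted p of 0.699 in edgeR's quasi-likelihood test. A lower Axl level was thus not seen in the libraries labelled iFAXLKO, and every direction below rests on the labels alone, iFAXLKO standing for the libraries so labelled. The counts are per gene, so reads from the exons between the loxP sites cannot be separated. They are also of whole tissue, while the deletion is aimed at adipocytes. The study itself blotted AXL protein in the mature fraction of inguinal white fat from both genotypes, another measure in another depot. The brown adipocyte marker Ucp1, the uncoupling protein, stood at 5600 ± 1120 CPM (SD, n = 8) in iFAXLKO and 6370 ± 914 CPM (SD, n = 5) in WT, which matches the labelled tissue.

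Fibrillar collagens are made as procollagen chains that wind into a triple helix, are trimmed outside the cell and then pack side by side into fibrils. Types I and III make up the bulk of fibrils in soft connective tissue, and type V chains are built into the fibril core, where they help to start fibrils and to limit their width. Types XII, XIV and XVI are fibril-associated collagens with interrupted triple helices (FACITs), which lie on the fibril surface rather than form fibrils themselves. In adipose tissue most of these genes are mainly products of fibroblasts and of progenitors in the stroma around adipocytes. A denser matrix is a known feature of adipose tissue in obesity.

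The coding sequences show what sets the groups of chains apart. A collagen helix needs glycine as the first of every 3 residues, so the helix appears in the coding sequence as triplets of codons that each open with a glycine codon (GGN). The first 30 codons of the longest such run are shown for a chain of each type, 5′ to 3′, with glycine codons of the repeat in capitals, from GENCODE M21 transcripts on GRCm38:
Col1a1: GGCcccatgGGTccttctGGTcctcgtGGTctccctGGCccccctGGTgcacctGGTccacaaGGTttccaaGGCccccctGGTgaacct
Col3a1: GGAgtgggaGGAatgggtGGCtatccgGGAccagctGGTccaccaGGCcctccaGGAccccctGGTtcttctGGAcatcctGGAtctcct
Col5a1: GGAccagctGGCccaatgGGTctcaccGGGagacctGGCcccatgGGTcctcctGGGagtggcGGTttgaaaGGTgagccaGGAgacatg
Col12a1: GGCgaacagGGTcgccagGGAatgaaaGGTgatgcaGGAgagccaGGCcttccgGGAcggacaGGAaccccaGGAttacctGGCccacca
Col14a1: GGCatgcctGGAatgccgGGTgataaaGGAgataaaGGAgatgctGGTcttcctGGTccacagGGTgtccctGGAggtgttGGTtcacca
Col16a1: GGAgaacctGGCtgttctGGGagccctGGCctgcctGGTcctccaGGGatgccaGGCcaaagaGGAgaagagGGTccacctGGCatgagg

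Each stretch is 90 coding bases joined across exons. The Col1a1 stretch lies within chr11:94939451-94939939 on the plus strand, in exons 6 to 8. That of Col3a1 lies within chr1:45323762-45325413 on the plus strand, in exons 5 to 6, and that of Col5a1 within chr2:27964080-27965295 on the plus strand, in exons 14 to 15. The Col12a1 stretch falls within chr9:79612423-79613769 on the minus strand, in exons 56 to 58. That of Col14a1 falls within chr15:55471708-55473306 on the plus strand, in exons 38 to 40, and that of Col16a1 within chr4:130079646-130080593 on the plus strand, in exons 47 to 48. Over 30 codons the 6 chains look alike, and they differ in how long the run goes on.

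In the fibrillar chains the longest run held 338 triplets in Col1a1, 339 in Col1a2, 344 in Col3a1, 338 in Col5a1, 339 in Col5a2 and 337 in Col5a3. The runs of at least 10 triplets covered 73.3% of the codons of Col1a1 and 57.9% of those of Col5a1. In Col12a1 and Col14a1 the longest run had 32 triplets, and the 4 runs of each came to 78 triplets near the end of the coding sequence. These runs made up 7.6% of the 3065 codons of Col12a1 and 13% of the 1798 codons of Col14a1. Col16a1 lay between, with 13 runs, the longest of 52 triplets, and 53% of its codons in them.

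Across all 13 libraries the level of each gene was compared per length, as CPM per kb of merged exons. Col3a1, the chain of the type III homotrimer, had the highest level at 26.5 ± 11.4 CPM per kb (SD, n = 13). It was followed by Col1a1 at 14.8 ± 7.14, Col5a3 at 10.2 ± 2.92 and Col1a2 at 8.6 ± 3.27 CPM per kb. Col5a1 stood at 4.49 ± 1.65 and Col5a2 at 3.34 ± 0.885 CPM per kb. The 3 FACITs were lowest, with Col12a1 at 1.38 ± 0.6, Col14a1 at 1.0 ± 0.419 and Col16a1 at 0.73 ± 0.159 CPM per kb. Neighbours in this order were compared by a paired permutation test over the 13 libraries (2-sided, sign changes, adjusted over 8 pairs). The order was set by the same means, so the test shows how steadily a gap held between libraries. From Col3a1 down to Col12a1 the adjusted permutation p ran from 0.000488 to 0.011. The test takes the merged exon length as given, so this p does not cover the choice of length. The value of 0.011 belongs to Col5a3 over Col1a2, an order that reversed on coding length. These gaps pool both groups, so unequal fold changes of neighbours enter them. The gap held in 11 of 13 libraries for Col12a1 over Col14a1 and in 9 of 13 for Col14a1 over Col16a1. Both gaps contain the higher Col14a1 level of the libraries labelled iFAXLKO, so no test is read for these pairs.

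The gap between neighbours on the log2 scale was 0.86 ± 0.11 (SD) for Col3a1 over Col1a1, in 13 of 13 libraries, and 1.34 ± 0.5 for Col5a2 over Col12a1, also in 13 of 13. It was smallest for Col5a3 over Col1a2, at 0.28 ± 0.32 in 12 of 13 libraries. Part of the order depends on the length used. With coding length alone, Col1a2 reached 25.9 CPM per kb against 22.2 for Col1a1 and 13.3 for Col5a3, because its merged exons span 12426 bases and its coding sequence 4116. On that length Col5a2 and Col5a1 were not distinguished (adjusted p = 0.151, permutation test). In the 5 libraries labelled WT, Col1a1 was above Col5a3 in 4 of 5. That gap was 0.29 ± 0.24 (SD) on the log2 scale there, against 0.46 ± 0.33 in all 13 libraries. Col16a1 was above Col14a1 in 4 of the 5 WT libraries. The WT means of Col16a1 and Col14a1, 0.641 and 0.619 CPM per kb, were not distinguished (exact permutation p = 0.562, n = 5). The smallest p this design allows is 0.0625.

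**Figure D1:**
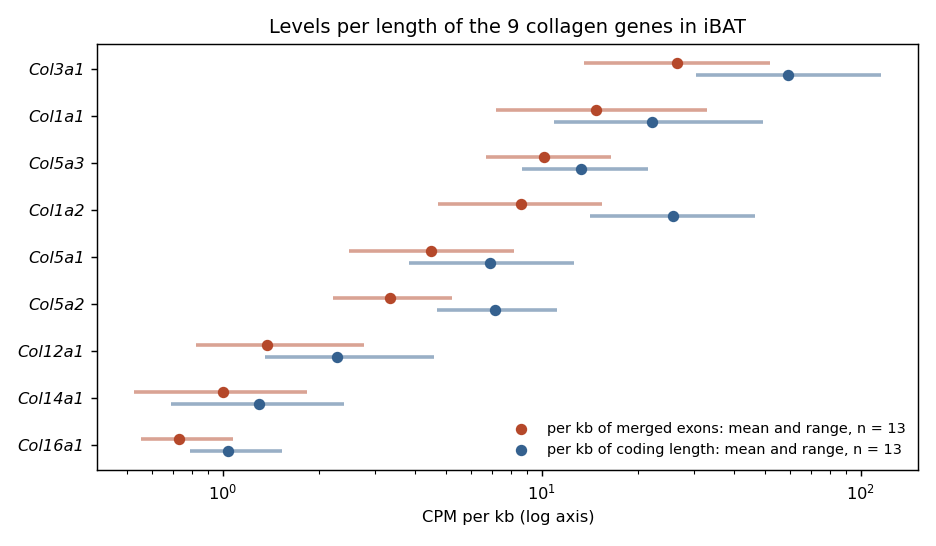
The horizontal axis is the level in CPM per kb on a log axis, with points at the mean of 13 libraries and lines from the lowest to the highest library, in red per kb of merged exons and in blue per kb of coding length. Col3a1 is highest on both lengths, the 3 FACITs are lowest on both, and Col1a2 moves from 8.6 to 25.9 CPM per kb.

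Type I collagen is a heterotrimer of Col1a1 and Col1a2 chains. The ratio of Col1a1 to Col1a2 per merged exon length had a median of 1.64 over the 13 libraries, from 1.43 in iFAXLKO replicate 8 to 2.13 in iFAXLKO replicate 2, and on coding length its median was 0.819. Its mean was 1.7 ± 0.252 (SD, n = 8) in the libraries labelled iFAXLKO and 1.66 ± 0.149 (SD, n = 5) in WT. For the type V partners Col5a1 and Col5a2 the ratio was 1.37 ± 0.217 (SD, n = 8) and 1.25 ± 0.122 (SD, n = 5). Col3a1 to Col1a1 was 1.83 ± 0.163 (SD, n = 8) and 1.81 ± 0.0877 (SD, n = 5). The chain ratios of types I and III thus overlapped between the groups, while the levels of the chains themselves spread by up to 4.56-fold between libraries.

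For the levels between the groups, Col1a1 and Col1a2, the chains of type I collagen, come first. Col1a1 ran from 60.3 CPM through a median of 96.2 to 216 CPM in the libraries labelled iFAXLKO, and in WT replicates 1 to 5 it was at 57.9, 58.9, 82.4, 97.6 and 47.3 CPM. The groups overlapped, with 4 of the 8 libraries labelled iFAXLKO above the highest WT library. The means were 114 ± 51.1 CPM (SD, n = 8) in iFAXLKO and 68.8 ± 20.6 CPM (SD, n = 5) in WT, and the log2 fold change was 0.73 (SE 0.29).

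Col1a2 ran from 80 through 113 to 192 CPM in iFAXLKO, and in WT it was at 69.2, 65.4, 82.3, 118 and 58.6 CPM. The WT mean of 78.6 ± 23.4 CPM (SD, n = 5) was exceeded in 8 of 8 libraries labelled iFAXLKO, yet 4 of them lay below WT replicate 4. The iFAXLKO mean was 124 ± 39.9 CPM (SD, n = 8), and the log2 fold change was 0.66 (SE 0.23). Col3a1, which forms thin fibrils with type I collagen, ran from 179 through 271 to 512 CPM in iFAXLKO. In WT it was at 152, 152, 215, 279 and 134 CPM. Its means were 306 ± 114 CPM (SD, n = 8) in iFAXLKO and 186 ± 60.3 CPM (SD, n = 5) in WT, with a log2 fold change of 0.71 (SE 0.26). For Col1a1, Col1a2 and Col3a1 alike, the highest library was iFAXLKO replicate 2 and the lowest WT replicate 5.

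Col5a1, the chain found in most type V trimers, ran from 25.8 through 41.5 to 69.4 CPM in iFAXLKO. In WT it was at 30.9, 23.7, 27.9, 38.2 and 21.2 CPM. The means were 44.2 ± 14.2 CPM (SD, n = 8) in iFAXLKO and 28.4 ± 6.64 CPM (SD, n = 5) in WT, with a log2 fold change of 0.64 (SE 0.22). Its partner Col5a2 ran from 25.9 through 33.1 to 50.4 CPM in iFAXLKO and was at 24.4, 21.2, 25.9, 35 and 21.9 CPM in WT. Its log2 fold change was 0.49 (SE 0.15), and 8 of 8 libraries labelled iFAXLKO were above the WT mean. Col5a3, the remaining type V chain, with a narrower tissue range, ran from 47.7 through 76 to 113 CPM in iFAXLKO and was at 54.4, 45.4, 60.5, 74.6 and 51.7 CPM in WT. Its log2 fold change was 0.42 (SE 0.18). The groups overlapped for each of the 3 type V chains, with 3 to 5 libraries labelled iFAXLKO above the highest WT library.

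Among the FACITs, Col14a1, which binds fibrils through decorin and other partners, had the widest separation. It was at 7.18, 12.9, 6.34, 10.3, 7.22, 6.15, 11.2 and 8.36 CPM in iFAXLKO replicates 1 to 8, and at 4.65, 4.52, 3.71, 5.12 and 3.71 CPM in WT replicates 1 to 5. The lowest library labelled iFAXLKO stood above the highest WT library, so the groups did not overlap. The means were 8.71 ± 2.49 CPM (SD, n = 8) in iFAXLKO and 4.34 ± 0.619 CPM (SD, n = 5) in WT, a 2.01-fold difference, and the log2 fold change was 1.01 (SE 0.19). These levels rest on 88 to 353 reads per library. It was the 1 member without overlap, against 0.24% of all genes tested with non-overlapping ranges in that direction. Since Col14a1 was chosen for this difference, nothing is read from that count.

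Col12a1, a large FACIT found where tissue bears tension, ran from 13.1 through 24.2 to 42.3 CPM in iFAXLKO and was at 15.7, 12.5, 13.8, 21 and 12.9 CPM in WT. Its means were 24.7 ± 9.8 CPM (SD, n = 8) in iFAXLKO and 15.2 ± 3.48 CPM (SD, n = 5) in WT, with a log2 fold change of 0.71 (SE 0.26). It followed another order of libraries than the fibrillar chains. Its highest values were in iFAXLKO replicates 6 and 8, at 42.3 and 33 CPM, whereas Col1a1 in these libraries was at 80.4 and 60.3 CPM, the lowest in the group. Col16a1, a FACIT of low abundance, ran from 3.93 through 5.23 to 7.29 CPM in iFAXLKO and was at 3.93, 4.61, 4.35, 5 and 3.75 CPM in WT. Its log2 fold change of 0.29 (SE 0.15) was the smallest of the 9, on 89 to 208 reads per library.

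**Figure D2:**
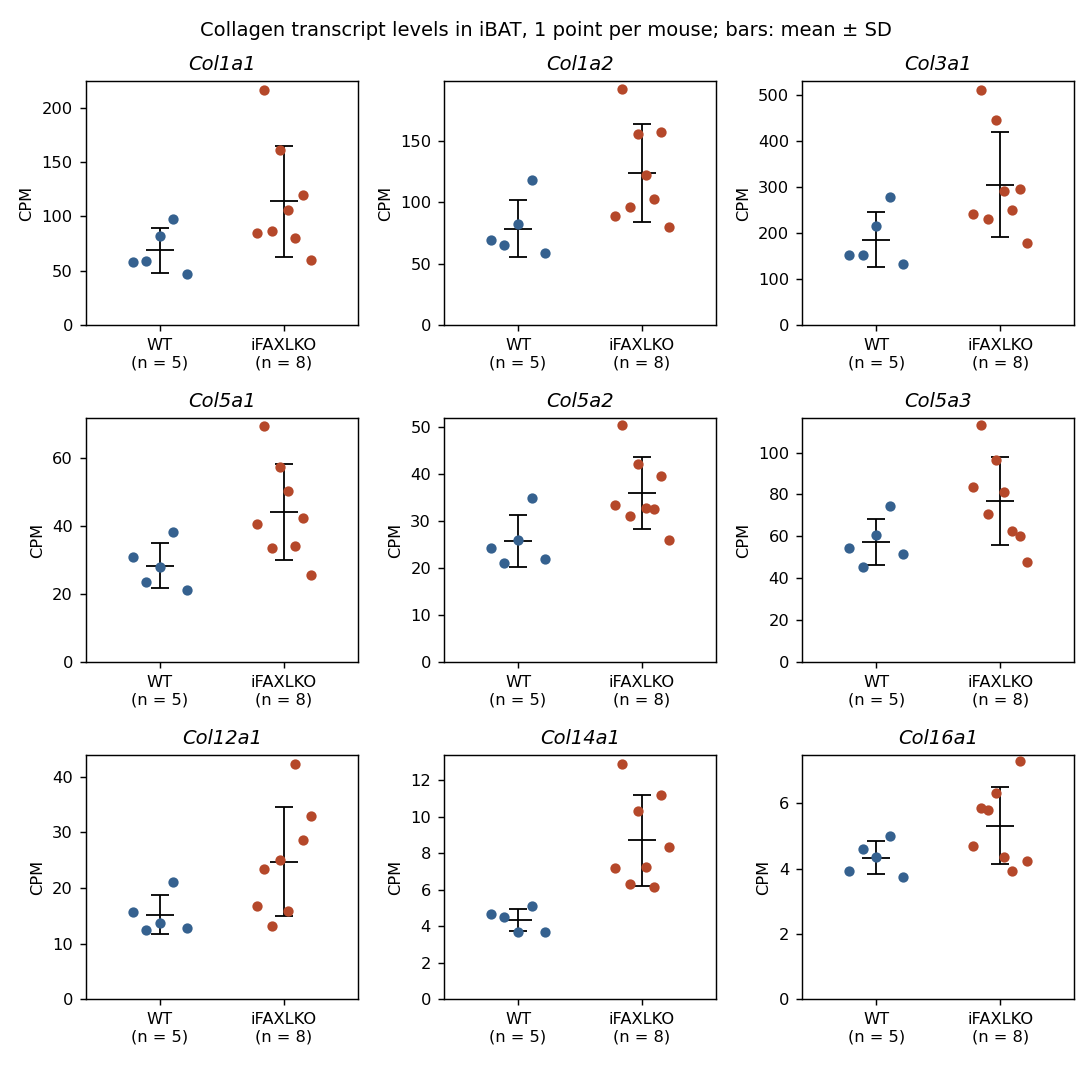
Each panel shows 1 gene, with the level in CPM on a vertical axis that starts at 0, blue points for the 5 WT mice, red points for the 8 mice labelled iFAXLKO, and bars at the mean ± SD. Col14a1 is the panel in which the groups do not overlap (6.15 to 12.9 against 3.71 to 5.12 CPM), and in the other 8 panels the highest WT library lies among the libraries labelled iFAXLKO.

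All 9 log2 fold changes were above 0, where 46.4% of the genes tested were, and their median was 0.66 against -0.01 over all genes. The median over the 3156 genes in the same range of exon length, 6563 to 15228 bases, was also -0.01. Under the limit of an adjusted p below 0.05, 0 of the 9 genes were called, where 0.127% of the genes tested (17 of 13360) were called in either direction, and 0.0973% (13) on the higher side, by edgeR's quasi-likelihood test. The count was 1 of 9, Col14a1, when iFAXLKO replicate 3 or iFAXLKO replicate 6 was left out, where 18 and 17 of all genes were called. At an unadjusted p below 0.05 the count was 8 of 9 on the higher side, where 3.84% of the genes tested were, and 0 of 9 on the lower side, where 3.54% were. DESeq2 called 1 of the 9 at the adjusted limit, namely Col14a1, and 67 of the 13360 genes tested. Of the genes tested, 6.96% had a log2 fold change of at least that of Col16a1, the smallest of the 9, which all 9 reach by definition. Col1a2, Col5a2 and Col14a1, 3 of the 9, were above the WT mean in 8 of 8 libraries labelled iFAXLKO, as were 3.2% of the genes tested. As the genes were chosen with this contrast known, these counts describe the set and support nothing further. Together the 9 genes took 0.0355 to 0.119% of the counts of a library.

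Leaving out single libraries kept the sign of each fold change. Without iFAXLKO replicate 2, the library with the highest level of 7 of the 9 genes, the log2 fold change was 0.54 for Col1a1 and 0.9 for Col14a1. Without WT replicate 4, the highest WT library for all 9 genes, that of Col3a1 was 0.91. As a further check, the library numbers in the labels were cut into a lower and a higher range. The lower range held 4 mice labelled iFAXLKO and 2 WT mice, and the higher range held 4 and 3. The place of the cut is a choice, since a gap as wide lies within the higher range. What the numbers stand for is not stated. The differences within the ranges rest on 2 and 3 WT mice and are given without error. Whether the ranges differ was not tested. With the range as a covariate of the fit, the median log2 fold change of the 9 genes was 0.66. In that fit 17 of all genes and 0 of the 9 were called at the adjusted limit. The difference of mean log2 CPM in the lower and the higher range was 1.11 and 0.29 for Col1a1, 0.91 and 0.44 for Col1a2, and 1.14 and 0.32 for Col3a1. It was 0.84 and 0.39 for Col5a1, 0.76 and 0.26 for Col5a2, and 0.85 and 0.00 for Col5a3. It was 0.4 and 0.14 for Col16a1. Col14a1 gave 0.93 and 0.95, nearly the same in both ranges, and Col12a1 gave 0.43 and 0.86.

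**Figure D3:**
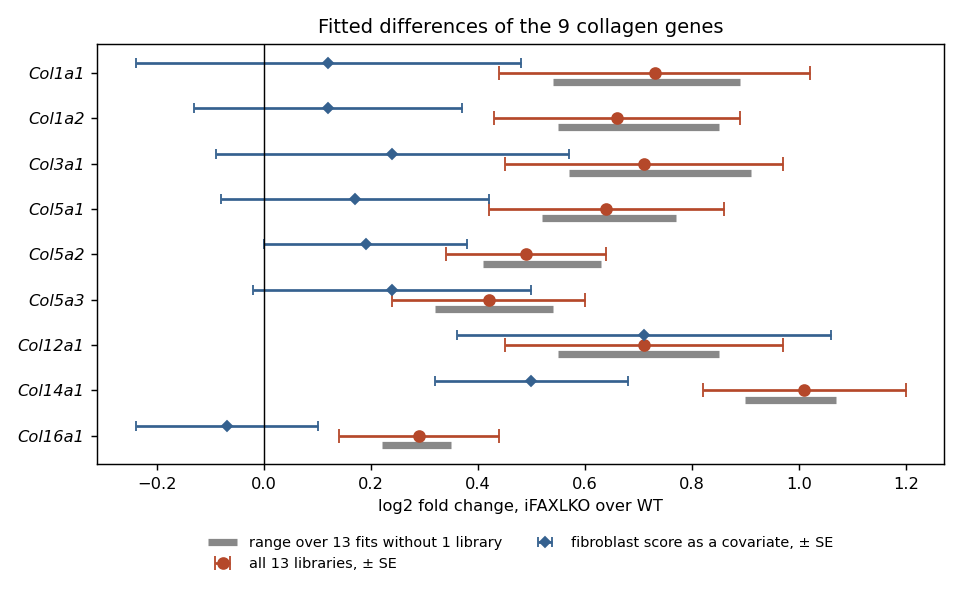
The horizontal axis is the log2 fold change of the libraries labelled iFAXLKO over WT. Red points are the fit of all 13 libraries ± SE, grey bars the range over 13 fits that each leave out 1 library, and blue diamonds the fit with a fibroblast marker score as a covariate ± SE. Red points run from 0.29 (Col16a1) to 1.01 (Col14a1), and the blue diamonds from -0.07 (Col16a1) to 0.71 (Col12a1).

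Markers of the stroma differed in the same direction as these genes. Of 12 fibroblast and progenitor markers, 11 were tested and Tcf21 was at 0, 10 of the 11 had a log2 fold change above 0 with a median of 0.45, and 0 were called at the adjusted limit. Their summed level ran from 1190 to 1500 CPM in the libraries labelled iFAXLKO and from 877 to 1250 CPM in WT. Most of this sum was Gsn, which encodes the actin-severing protein gelsolin. Gsn was at 1150 ± 95.9 CPM (SD, n = 8) in iFAXLKO and 892 ± 148 CPM (SD, n = 5) in WT. Mfap5, a microfibril protein that marks adventitial progenitors, was at 9.39 ± 3.6 CPM (SD, n = 8) in iFAXLKO and 5.49 ± 1.52 CPM (SD, n = 5) in WT. With the mean log2 level of these markers, called the fibroblast score, as a covariate of the fit, the median log2 fold change of the 9 collagen genes was 0.19. Col1a1 then came to 0.12 (SE 0.36), Col1a2 to 0.12 (SE 0.25) and Col3a1 to 0.24 (SE 0.33). Col5a1 came to 0.17 (SE 0.25), Col5a2 to 0.19 (SE 0.19) and Col5a3 to 0.24 (SE 0.26). Col14a1 came to 0.5 (SE 0.18) and Col16a1 to -0.07 (SE 0.17). Col12a1 was at 0.71 with an SE of 0.35, against an SE of 0.26 without the score. The part of stromal cells in the differences was not tested.

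At an unadjusted p below 0.05, 7 of the 11 fibroblast markers were on the higher side, as were 7 of 8 macrophage markers, against 3.84% of all genes tested. The marker lists were chosen with earlier results of these data known, and markers of a list vary together. These counts are therefore descriptions and support nothing further. All 8 macrophage markers had log2 fold changes above 0, with a median of 0.40 and a summed level of 105 to 203 CPM in iFAXLKO and 90.1 to 127 CPM in WT. For 8 endothelial markers the median was 0.18, with sums of 759 to 1200 and 637 to 938 CPM, and for 8 pericyte and smooth muscle markers 0.13, with sums of 752 to 928 and 690 to 901 CPM. For 6 of 8 Schwann cell markers tested the median was 0.12, with sums of 46.3 to 61.2 and 45.3 to 51.1 CPM, and for 5 of 6 erythroid markers 0.34, with sums of 386 to 686 and 285 to 710 CPM. The median was -0.12 over 10 brown adipocyte markers, with sums of 7650 to 11800 and 9590 to 14200 CPM. Of these 10, 2 had log2 fold changes above 0. At an unadjusted p below 0.05, 0 were on the higher side and 1 on the lower side, where 3.54% of all genes tested were. Skeletal muscle, which lies under the depot, varied most, with a median of -0.25 over 14 markers and sums of 10.7 to 5950 CPM in iFAXLKO and 29.9 to 4130 CPM in WT. None of these markers was called at the adjusted limit, where 0.127% of all genes were, and their part in the collagen differences was not tested. Lymphocyte markers did not pass the filter, with 0 of 8 tested.

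Tendon and fascia express type I and type XII collagen, so their markers were read beside Col12a1. Of 8 markers, 7 did not pass the filter, and Kera, which encodes keratocan, was at 0 in all 13 libraries. Tnmd, which encodes tenomodulin, stayed at or below 0.129 CPM, and Scx, the tendon transcription factor scleraxis, at or below 0.523 CPM. Thbs4, a thrombospondin of tendon and muscle, was seen in all 13 libraries, from 0.253 to 2.36 CPM, and was highest in iFAXLKO replicate 1. Fibin alone was tested, at 7.31 ± 2.53 CPM (SD, n = 8) in iFAXLKO and 4.26 ± 1.15 CPM (SD, n = 5) in WT. Its log2 fold change was 0.78 (SE 0.25), with an adjusted p of 0.49 in edgeR's quasi-likelihood test.

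How the 9 genes varied from mouse to mouse within a group does not use the difference between the groups. Group means were therefore subtracted from log2 CPM, and 35 relations were tested over the 13 libraries by 100000 permutations within groups, with p-values adjusted over the 35. Col1a1 varied with Col3a1 (Pearson r = 0.98, adjusted permutation p = 0.00035, Spearman rho = 0.93, adjusted permutation p = 0.00175). It also varied with Col1a2 (r = 0.95, rho = 0.92), Col5a2 (r = 0.94, rho = 0.86), Col5a1 (r = 0.92, rho = 0.9) and Col5a3 (r = 0.83, rho = 0.68), with adjusted permutation p of Pearson's r from 0.00035 to 0.0075. With iFAXLKO replicates 2 and 4 left out, the libraries farthest from the median of Col1a1, these 5 coefficients were 0.97, 0.94, 0.9, 0.86 and 0.69, and the last missed the limit (adjusted permutation p = 0.0595).

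With Col14a1 the coefficient was 0.7 (adjusted permutation p = 0.0385, rho = 0.65, adjusted permutation p = 0.0721). Without the same 2 libraries it was 0.44, so this relation rests on them. With Col16a1 it was 0.67 (adjusted permutation p = 0.0527, rho = 0.76, adjusted permutation p = 0.0236). The relation of Col12a1 to Col1a1 did not pass (r = 0.05, adjusted permutation p = 0.889, rho = 0.02, adjusted permutation p = 0.968), with r = 0.62 among the 6 libraries of the lower number range and -0.17 among the 7 of the higher. The other 5 fibrillar chains had r of 0.81 to 0.99 with Col1a1 within each range. Over the 36 pairs among the 9 genes, r ran from -0.20 for Col5a3 with Col12a1 to 0.98, with a median of 0.69. These pairs share libraries and are given as a description.

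Col14a1 varied with the fibroblast score (r = 0.8, adjusted permutation p = 0.0075, rho = 0.69, adjusted permutation p = 0.00968), and r was 0.77 without the 2 farthest libraries. In the lower and higher number ranges r was 0.8 and 0.85. Col16a1 had r = 0.72 with the score (adjusted permutation p = 0.0224, rho = 0.66, adjusted permutation p = 0.0236), but 0.2 in the lower range and 0.83 in the higher. The other 7 genes had r from 0.09 for Col12a1 to 0.64 for Col1a2 and did not pass. For Col12a1 r was 0.87 in the lower range and 0.01 in the higher, and neither passed. None of the 9 passed with the skeletal muscle score, where r ran from -0.22 to 0.55. In the lower number range r with that score ran from -0.78 to 0.13, and in the higher from -0.19 to 0.79. Without the 2 farthest libraries, WT replicate 5 and iFAXLKO replicate 8, it ran from -0.55 to 0.04. None passed in these settings either.

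Axl itself varied with Col14a1 from mouse to mouse within the groups (r = 0.86, adjusted permutation p = 0.00399, rho = 0.86, adjusted permutation p = 0.00469). The value was 0.86 without the 2 farthest libraries, and 0.89 and 0.92 in the lower and higher ranges of library numbers. Axl also passed with Col1a2 (r = 0.81, rho = 0.73), Col16a1 (r = 0.77, rho = 0.76), Col5a2 (r = 0.76, rho = 0.72), Col1a1 (r = 0.72, rho = 0.75), Col5a1 (r = 0.7, rho = 0.75) and Col3a1 (r = 0.69, rho = 0.66), with adjusted permutation p of Pearson's r from 0.0112 to 0.0385. For Col3a1 the adjusted permutation p of rho was 0.0506. Without the 2 libraries farthest on Axl, WT replicate 4 and iFAXLKO replicate 7, Col5a1 still passed (r = 0.84, adjusted permutation p = 0.0327). The other 5 of these 6 then missed the limit, with r = 0.76 for Col1a2, 0.59 for Col16a1, 0.73 for Col5a2, 0.78 for Col1a1 and 0.77 for Col3a1 and adjusted permutation p from 0.0595 to 0.201. Within the lower and higher ranges of library numbers r was 0.28 and 0.94 for Col16a1, and from 0.64 to 0.89 for the other 5 genes. With Col5a3 (r = 0.43, rho = 0.41) and Col12a1 (r = 0.24, rho = 0.21) Axl did not pass. For Col12a1 r with Axl was 0.93 in the lower range and 0.03 in the higher, and neither passed. Of the 35 relations, 15 passed by Pearson's r, and 7 still did without the 2 farthest libraries. How often other genes would pass with Col1a1, the scores or Axl was not computed. These relations are thus not shown to be particular to the collagen genes.

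**Figure D4:**
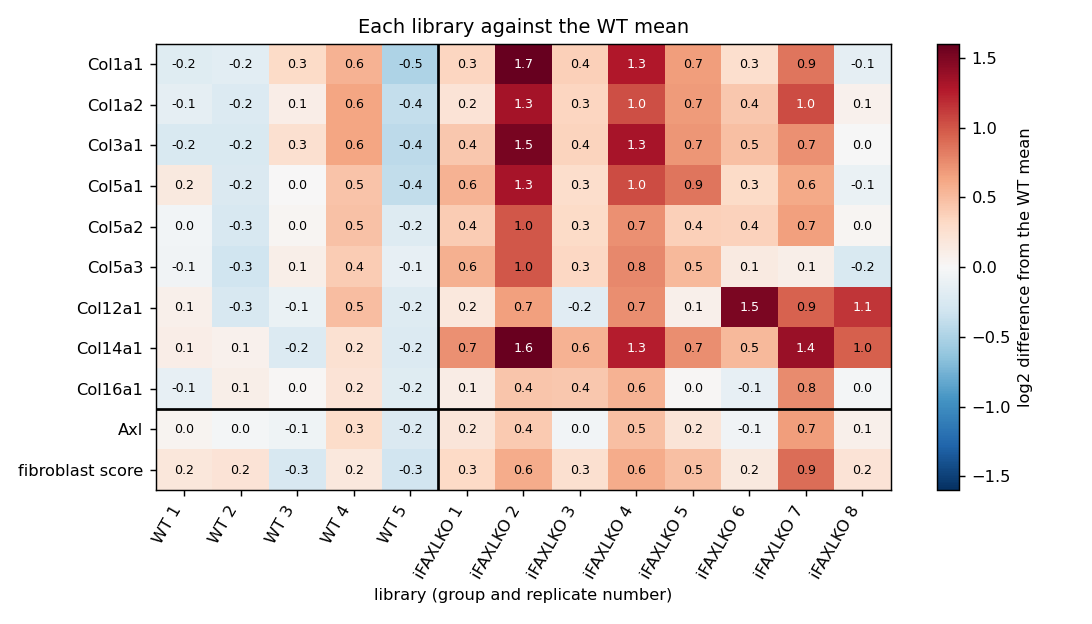
Columns are the 13 libraries, rows the 9 collagen genes, Axl and the fibroblast score, and each cell gives the log2 difference from the WT mean, red above and blue below. iFAXLKO replicates 2 and 4 are high in the fibrillar chains (1.7 and 1.28 for Col1a1), replicates 6 and 8 are high in Col12a1 (1.51 and 1.15), and Col14a1 is above 0.5 in all 8 libraries labelled iFAXLKO.

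The genes whose level followed the 9 most closely, after the group means were subtracted and over 13 libraries, were Sfrp4 (r = 0.954), a secreted Wnt antagonist, Fstl1 (r = 0.938), a secreted glycoprotein, Col6a3 (r = 0.924) and Col6a1 (r = 0.92), chains of type VI collagen, and Medag (r = 0.913), a gene of adipocyte differentiation. Those closest to Col14a1 were Dpysl3 (r = 0.938), Ildr2 (r = 0.921), Fndc1 (r = 0.899), Plekho2 (r = 0.888) and Lpar1 (r = 0.878), the last a receptor for lysophosphatidic acid. No gene stands in both groups of 5. Both groups come from a search over all genes tested and are descriptions without a test. Sfrp4 and Ildr2 were near the filter limit, with WT means of 0.712 and 0.727 CPM.

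The remaining genes of fibril biology were read as counts beside the 0.127% of all genes called. Among the other fibrillar and FACIT genes, 3 of 12 were tested, namely Col20a1, Col11a2 and Col27a1, and 0 were called. Col27a1, a fibrillar chain of cartilage, was at 80.4 ± 18.1 CPM (SD, n = 8) in iFAXLKO and 79.8 ± 12.3 CPM (SD, n = 5) in WT, with a log2 fold change of 0.01 (SE 0.16). Among 24 other collagen genes 15 were tested, all with log2 fold changes above 0 and a median of 0.45, and 1 was called. That gene, Col6a6, a low-level chain of type VI collagen, rose from 0.43 ± 0.115 CPM (SD, n = 5) to 1.13 ± 0.234 CPM (SD, n = 8), with a log2 fold change of 1.39 (SE 0.22) and an adjusted p of 0.00974 in edgeR's quasi-likelihood test. All 5 WT libraries were below 1 CPM, so Col6a6 passed the filter only through the libraries in which it was high, and its call is not support for a difference of the list. Col15a1, a collagen at the border of the basement membrane, was at 55.4 ± 11.6 CPM (SD, n = 8) in iFAXLKO and 34 ± 5.65 CPM (SD, n = 5) in WT, with an adjusted p of 0.103 in the same test.

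For the proteins that process procollagen and assemble fibrils, 15 of 17 genes were tested, 0 were called, and 11 had log2 fold changes above 0 with a median of 0.35. Lum, the fibril-binding proteoglycan lumican, was at 25.8 ± 5.27 CPM (SD, n = 8) in iFAXLKO and 15.6 ± 3.41 CPM (SD, n = 5) in WT, with an adjusted p of 0.122 in edgeR's quasi-likelihood test. Dcn, decorin, was at 116 ± 13 CPM (SD, n = 8) in iFAXLKO and 87 ± 8.12 CPM (SD, n = 5) in WT. Adamts14, a protease that removes the amino-terminal propeptide, was at 1.2 ± 0.493 CPM (SD, n = 8) in iFAXLKO and 0.461 ± 0.115 CPM (SD, n = 5) in WT. Like Col6a6, Adamts14 was below 1 CPM in all 5 WT libraries and passed the filter only through the libraries labelled iFAXLKO.

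Inside the cell, procollagen is hydroxylated and folded, and outside it is crosslinked. Of 23 genes of these steps 21 were tested and 0 were called, with a median log2 fold change of 0.12 and 14 values above 0. P3h3 and P3h1, prolyl 3-hydroxylases, had log2 fold changes of 0.35 (SE 0.11) and 0.25 (SE 0.08), and Fkbp10, a collagen chaperone, 0.51 (SE 0.17). Serpinh1, the procollagen chaperone HSP47, which lies outside the rule for naming genes, was at a mean of 369 CPM in iFAXLKO and 403 CPM in WT.

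Among genes of collagen breakdown 12 of 15 were tested, 0 were called, and 11 were above 0 with a median of 0.30. Timp2, an inhibitor of matrix metalloproteinases, Fap, a protease of activated fibroblasts, and Mmp2, a gelatinase, had log2 fold changes of 0.48 (SE 0.13), 0.56 (SE 0.16) and 0.41 (SE 0.13). Among collagen receptors 6 of 9 were tested and 0 were called, with 3 of the 6 above 0 and a median of 0.12. Itga11, the collagen-binding integrin chain of fibroblasts, was at 3.36 ± 0.988 CPM (SD, n = 8) in iFAXLKO and 2.02 ± 0.484 CPM (SD, n = 5) in WT. Ddr2, a receptor tyrosine kinase for fibrillar collagen, was at 21.3 ± 2.6 CPM (SD, n = 8) in iFAXLKO and 17.9 ± 3 CPM (SD, n = 5) in WT. Ddr1, the related receptor of epithelial cells, had means of 14.9 and 17.3 CPM.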

How the data were processed

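The deposited files hold raw counts, 1 whole number per Ensembl gene for 42416 identifiers per library, made by the authors from TruSeq libraries. Processing notes of the submitters name bcl2fastq 2.20, fastp 0.20.0, STAR 2.7.4a and the build GRCm38.p6, and DESeq2 without a version. The methods of the study instead name Trim Galore and hisat2, and depletion of ribosomal RNA where the labels give polyadenylated RNA. Which applies was not settled, and how reads were counted, and with what strand setting, is not given in the sources used here. Symbols, positions, exon and coding lengths came from GENCODE M21 (GRCm38).

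The filter kept genes above 1 CPM in 5 or more libraries. Counts were fitted with edgeR 4.0.16 (R 4.3.3) by the robust quasi-likelihood F test with TMM factors, 2-sided, adjusted by Benjamini-Hochberg over all 13360 genes. The SE of a log2 fold change is its size over the square root of F. CPM carry TMM factors, and a prior count of 2 went into log2 CPM. A permutation test over libraries compared levels per length and correlations (scipy). The pipeline was tested on simulated data.

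Groups come from the titles, with 1 library per mouse, and libraries of a group differed from each other by at least 15.26 in chi-square per degree of freedom, so each counted as 1 replicate. The 9 genes and all gene lists were chosen with earlier results of these data known. Named genes are the 9, Axl, the 5 nearest by correlation to their mean and to Col14a1, and up to 3 of each list with the smallest p. Ucp1 is named by that rule and Kera, Tnmd, Scx, Thbs4, Tcf21, Ddr1 and Serpinh1 outside it, some after their values were seen. Some genes that met this rule are not reported here. No protein sequences were used. Alternatives were DESeq2 1.42.0, limma-voom, other factors, filters, dispersions, covariates and left-out libraries.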

Additional observations from a re-analysis of the deposited data

Results flagged for a closer look

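Of 132 sets of values (66 genes in 2 groups), 2 held a library that stood apart from its group by Dixon's test, where chance gives about 1 in 20 sets. Neither is a fibrillar or fibril-associated collagen. Clec3b, a fibroblast marker, was at 35.7 CPM in iFAXLKO replicate 7 and at 22.8 to 27.5 CPM in the others of the group. Emcn, an endothelial sialomucin, was at 46.7 CPM in iFAXLKO replicate 4 against 21.6 to 33.3 CPM.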

How the results depend on the processing

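The count of genes called, 17, was 67 with DESeq2, 9 with the fibroblast score as a covariate and 14 to 19 when single libraries were left out. Of the 9 collagen genes, 1 (Col14a1) was called in place of 0 with DESeq2, with RLE factors, with library sizes that leave out mitochondrial and the 10 most abundant genes, and without the filter. Over all genes the number called in these settings was 67, 18, 18 and 17, in that order. When single libraries were left out, 0 to 1 of the 9 were called. It was 1 without iFAXLKO replicate 3 or iFAXLKO replicate 6, where 18 and 17 of all genes were called. The median log2 fold change of the 9, 0.66, was 0.54 to 0.85 without single libraries and 0.19 with the fibroblast score. With that score Col1a1 was at 0.12, Col1a2 at 0.12, Col5a1 at 0.17, Col5a2 at 0.19, Col14a1 at 0.5 and Col16a1 at -0.07. Col3a1 and Col5a3 were then at 0.24 each and Col12a1 at 0.71 (SE 0.35). Col5a3 was at 0.85 within the lower range of library numbers and at 0.00 within the higher. The cause of these moves was not tested. Without single libraries Col1a1 ranged from 0.54 to 0.89, Col1a2 from 0.55 to 0.85, Col3a1 from 0.57 to 0.91, Col5a1 from 0.52 to 0.77, Col5a2 from 0.41 to 0.63, Col5a3 from 0.32 to 0.54, Col12a1 from 0.55 to 0.85, Col14a1 from 0.9 to 1.07 and Col16a1 from 0.22 to 0.35.

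The replicate numbers were not taken to pair mice, since the deviations of samples with the same number correlated at 0.392, 0.422, 0.188, 0.181 and, for number 5, -0.614, and the labels tie no number to a shared litter or day. With a replicate block 7 genes and 0 of the 9 collagen genes were called, and Col12a1 was at 0.29.

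On coding length the log2 difference of Col5a3 over Col1a2 was -0.93 and of Col5a1 over Col5a2 -0.08, and in WT alone that of Col14a1 over Col16a1 was -0.06. Of 35 correlations, 15 passed, 7 without the 2 farthest libraries, 21 without subtraction of group means, and 0 within the lower and 0 within the higher range of library numbers, where 6 and 7 libraries leave few orders to permute. The lowest members, Col14a1 and Col16a1, rest on at most 353 reads per library.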

Other observations

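Genes near Col12a1 were looked up after its values were seen, because it followed the other 8 genes least. After subtraction of the group means, over 13 libraries, those with a high coefficient included A930037H05Rik (r = 0.943), Tmem231 (r = 0.907), Gm28177 (r = 0.905) and Gtf2e1 (r = 0.892). Fibin, the tendon and fascia marker that passed the filter, had r = 0.67 with Col12a1. The first 4 coefficients come from a search over all genes tested and that of Fibin from a single look-up, and all are descriptions without a test.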
